A study of Aspergillus cristatus with 9 samples.

Results

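*SI65_07647* and *SI65_08013* are a pair of genes of *A. cristatus*, the golden flower fungus, that the deposited table annotates as agmatine deiminase (EC 3.5.3.12). They were picked by their gene identifiers, with their FPKM over these libraries already known, and are 2 of the 10227 genes in the table. RNA was sequenced in 9 libraries of strain JLU, 3 in each of 3 groups. EcRS was the fungus harvested after 1 week at 28 °C on sterilized roots of *P. ginseng*, EcSQ was the fungus treated in the same way on sterilized roots of *P. notoginseng*, and EcCK was the control that had met no root. All cultures had first been grown for 10 days on PDA plates, so the substrate, and perhaps the age and the growth stage, changed together with root contact and cannot be told apart from it. The sources do not state whether replicate libraries stem from separate cultures, so every p-value measures the spread between these libraries alone, which may be technical. The labels call the material of all groups mycelium, whereas the published methods describe spores for the control.

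Agmatine is the amine left when arginine loses its carboxyl group. Agmatine deiminase removes the imino group of agmatine as ammonia and leaves N-carbamoylputrescine, which an amidase then turns into putrescine in plants and many bacteria. Agmatinase reaches putrescine from agmatine in a single step and releases urea. Fungi are better known for the ornithine route, in which arginase and ornithine decarboxylase make putrescine, the precursor of spermidine. Polyamines bind nucleic acids and are needed for growth and development in fungi.

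Each library held between 45891944 and 61627866 estimated counts in the listed genes. EcSQ replicate 3 stood apart from its group. Its correlation with the EcRS libraries was 0.91 to 0.93 (Pearson, across genes on the log2 scale), against 0.78 and 0.85 with EcSQ replicates 1 and 2, and so the fold changes, the mean ratio and the counts of calls for EcSQ are given with and without it. Mapped units outside the genes of the table made up 23.1% to 26.9% in EcRS, 12.1% to 14.9% in EcSQ and 12.1% to 14.1% in EcCK. FPKM, the reads of a gene scaled to its length and to the mapped total, divide by the total with these units, and the median log2 fold change of the 8925 genes tested for EcRS over EcCK was -0.96, or -0.11 when the libraries were scaled by TMM (trimmed mean of M values). Fold changes are therefore also given relative to that median. The sum over 255 genes annotated to conidia, spores or sporulation was 36746 to 41704 FPKM in EcRS, 35939 to 52670 in EcSQ and 25818 to 33740 in EcCK, and 29 of the 242 tested rose in EcRS while 87 fell (84 and 60 with TMM), so that 47.9% were called, against 60.5% of all genes (12.8% higher and 47.6% lower). Of the regulators that define conidiation, *brlA* (*SI65_02778*) had 23.4, 26.3 and 35.2 FPKM in EcRS against 8.98, 15.0 and 34.6 FPKM in EcCK. *abaA* (*SI65_01598*) had 0.927, 1.65 and 2.92 FPKM in EcRS against 3.98, 4.70 and 7.03 FPKM in EcCK. Neither was at 0 in any library, and the part of growth stage in the results below was not tested.

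*SI65_07647* lies on contig 10 at positions 39852 to 41012 on the minus strand, and *SI65_08013* on contig 11 at positions 248974 to 250320 on the plus strand. Both have 1 exon, with coding lengths of 1161 and 1347 bases. The table describes both as hypothetical proteins and gives both the terms for putrescine biosynthesis and protein-arginine deiminase activity and the KEGG pathway of arginine and proline metabolism. A further gene with the same enzyme number, *SI65_05209*, lies on contig 5 at positions 40876 to 41933 on the plus strand, has 3 exons and a coding length of 942 bases.

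*SI65_07647* was among the most abundant transcripts of the control and was far lower on ginseng. Its level was 95.3, 90.2 and 107.7 FPKM in the 3 EcRS libraries, 6217, 5605 and 120.4 FPKM in EcSQ, and 2352, 3273 and 3465 FPKM in EcCK. Ranked by FPKM among all genes it stood at places 1236, 1268 and 1175 in EcRS, 6, 11 and 997 in EcSQ, and 43, 21 and 13 in EcCK. All EcRS libraries lay below all EcCK libraries, and EcSQ replicates 1 and 2 lay above every EcCK library while replicate 3 lay just above the highest EcRS library. The share of all genes with EcSQ replicates 1 and 2 above every EcCK library is not given here. In EcSQ replicate 1 *SI65_07647* alone took 0.829% of all counts in genes, against 0.0149% in EcRS replicate 1.

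*SI65_08013* was the less abundant of the pair in every library, and its fold difference from the control was the larger in EcRS. Its level was 0.831, 1.24 and 1.02 FPKM in EcRS, 55.0, 32.7 and 1.39 FPKM in EcSQ, and 280, 302 and 270 FPKM in EcCK. Its place by FPKM was 8004, 7443 and 7777 in EcRS, 2561, 3313 and 6935 in EcSQ, and 400, 398 and 487 in EcCK. By FPKM the 3 groups did not overlap: every EcRS library lay below every EcSQ library, and every EcSQ library below every EcCK library. Over all genes tested, EcRS lay wholly below EcSQ in 21.1% and EcSQ wholly below EcCK in 17.7%. As a share of the counts in genes, however, EcSQ replicate 3 (0.000221%) lay below EcRS replicate 2 (0.000229%). The order of these 2 libraries thus depends on the scaling. The EcRS values rested on 80, 105 and 90 estimated counts. In RNA from whole cultures, fewer cells that express a gene and less RNA per cell cannot be told apart.

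**Figure D1:**
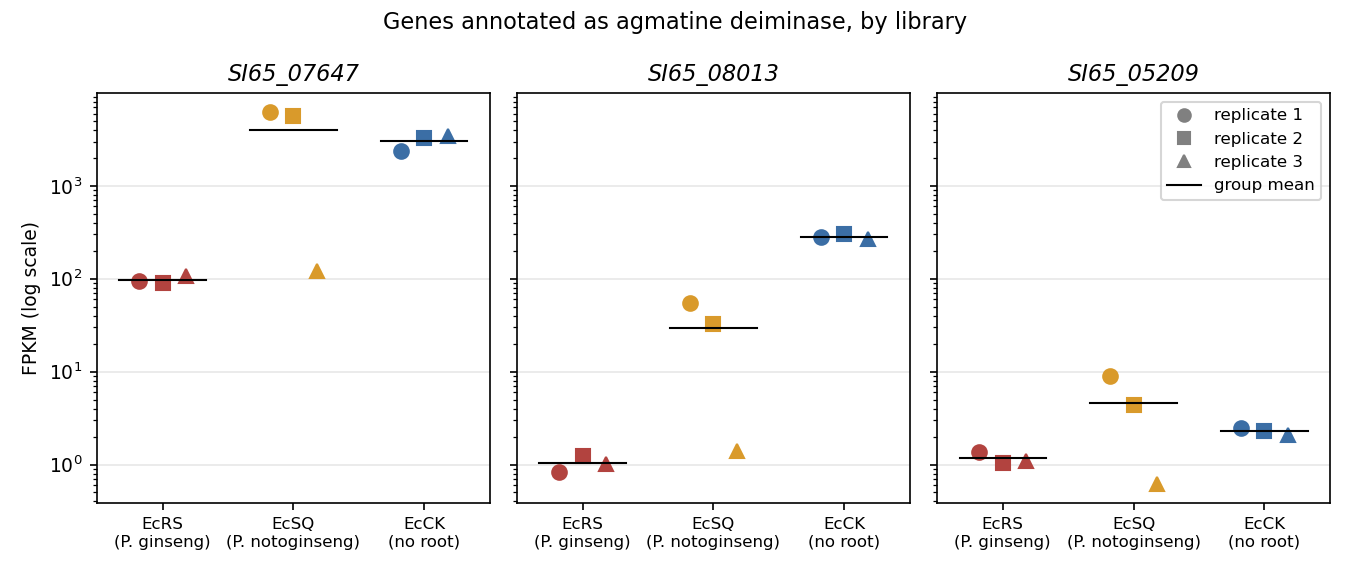
FPKM (log scale) of the 3 genes annotated as agmatine deiminase in each library of EcRS, EcSQ and EcCK. Marker shapes give the replicate number and black lines the group means. EcSQ replicate 3 sits beside the EcRS libraries for *SI65_07647* (120.4 FPKM) and *SI65_08013* (1.39 FPKM).

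The fold changes of the pair are a description with no test, since both genes were chosen on these libraries. *SI65_07647* averaged 97.8 ± 9.03 FPKM in EcRS and 3030.4 ± 595 FPKM in EcCK (SD, n = 3 each), a log2 fold change of -4.95 ± 0.36 (SE). *SI65_08013* averaged 1.03 ± 0.204 FPKM in EcRS and 284 ± 16.8 FPKM in EcCK (SD, n = 3 each), a log2 fold change of -8.10 ± 0.33. Relative to the median of all genes the changes were -4.00 and -7.14, and with TMM, where they were -4.11 and -7.29, the same relative values came to -4.00 and -7.18. In that comparison 60.5% of the 8925 genes tested were called, 47.6% as lower and 12.8% as higher (31.4% and 26.4% with TMM), and in 54.3% all EcRS libraries lay below all EcCK libraries. A gene was called when its adjusted p was at most 0.05 and it changed at least 2-fold.

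On *P. notoginseng* the genes of the pair differed from each other. *SI65_07647* averaged 3981 ± 3357 FPKM in EcSQ (SD, n = 3), and its log2 fold change over EcCK was 0.39 ± 1.02. Without EcSQ replicate 3 the mean was 5911 FPKM and the log2 fold change 0.96 ± 0.55, and without EcSQ replicate 1 the log2 fold change was -0.08, so its direction was not settled. *SI65_08013* averaged 29.7 ± 26.9 FPKM in EcSQ (SD, n = 3), with a log2 fold change over EcCK of -3.26 ± 1.01, or -2.69 ± 0.45 without EcSQ replicate 3. In this comparison 3.59% of the 9160 genes tested were called, and 16.6% of 9178 without that library (9.88% as higher and 6.69% as lower). All EcSQ libraries lay below all EcCK libraries in 17.7% of the 9160 genes, or in 19.4% of 9178 without that library.

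Between the roots both genes were lower on ginseng. The log2 fold change of EcRS over EcSQ was -5.35 ± 1.23 for *SI65_07647* and -4.84 ± 1.19 for *SI65_08013*. Without EcSQ replicate 3 the values were -5.92 ± 0.31 and -5.40 ± 0.37. In this comparison 0.0342% of the 8784 genes tested were called, and without that library 54.1% of 8842, with 49.8% as lower. All EcRS libraries lay below all EcSQ libraries in 21.1% of the 8784 genes, or in 65.0% of 8842 without EcSQ replicate 3. The comparisons with EcCK share its 3 libraries, so their values are not independent of each other.

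The balance between the pair can be read within a library, where it does not depend on how libraries are scaled. The FPKM of *SI65_07647* divided by that of *SI65_08013* was 115, 72.8 and 105 in EcRS, 113, 171 and 86.8 in EcSQ, and 8.40, 10.8 and 12.9 in EcCK. On average the ratio was 97.6 ± 22.0 in EcRS, 124 ± 43.2 in EcSQ and 10.7 ± 2.23 in EcCK (SD, n = 3 each). Without EcSQ replicate 3 the EcSQ mean was 142 ± 41.2 (SD, n = 2). Every library from a root lay above every control library, but how often the ratio of other gene pairs separates in this way was not computed. EcSQ replicate 3, which differed from the other EcSQ libraries in the level of each gene, had a ratio between those of EcRS replicates 1 and 2. Expressed as a share of the FPKM of all 3 deiminase genes, *SI65_08013* made up 0.852% to 1.34% in EcRS, 0.580% to 1.13% in EcSQ and 7.21% to 10.6% in EcCK. The ratio uses the same values as the choice of the pair and is given with no test.

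**Figure D2:**
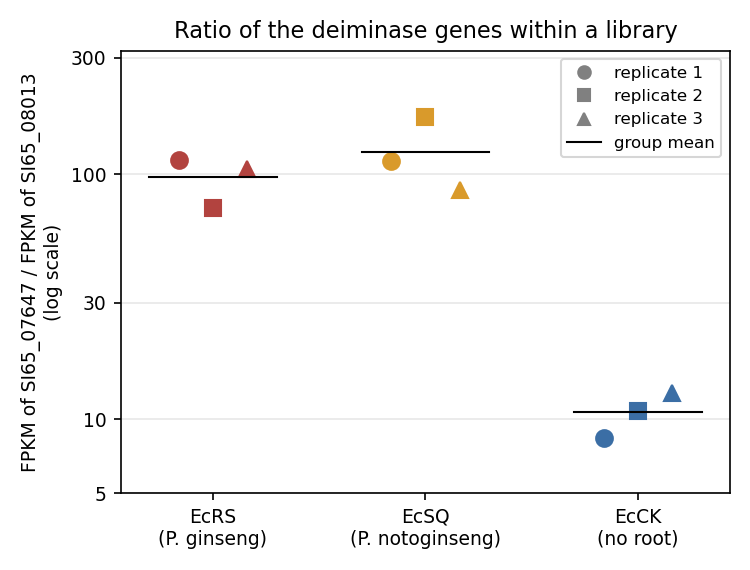
FPKM of *SI65_07647* divided by FPKM of *SI65_08013* (log scale) in each library of EcRS, EcSQ and EcCK, with group means as black lines and marker shapes for the replicate. The 6 libraries from roots lie between 72.8 and 171, and the 3 control libraries between 8.40 and 12.9.

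The third gene with the deiminase number was weakly expressed in all groups. *SI65_05209* had 1.38, 1.05 and 1.09 FPKM in EcRS, 8.94, 4.34 and 0.615 FPKM in EcSQ, and 2.49, 2.28 and 2.10 FPKM in EcCK. The EcRS libraries lay below the EcCK libraries, and the log2 fold change of -0.96 ± 0.36 had an adjusted p of 0.0401 (edgeR quasi-likelihood, Benjamini-Hochberg) but did not reach the 2-fold limit, which it passed without EcCK replicate 3 (-1.02). The value of -0.96 equals the median of all genes, which was -0.73 without EcCK replicate 3. EcSQ replicates 1 and 2 lay above EcCK, and the log2 fold change over EcCK was 1.01 (adjusted p = 0.587), or 1.53 without EcSQ replicate 3 (adjusted p = 0.0981). Next to it, 547 bases away and read in the opposite direction, lies *SI65_05208*, annotated as a glycine amidinotransferase, which moves the amidino group of arginine. This neighbour fell in EcRS, with 1.73, 1.68 and 1.84 FPKM against 26.1, 24.3 and 19.4 FPKM in EcCK (-3.72 ± 0.31 on the log2 scale, adjusted p = 2.32e-05).

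*SI65_05495*, which the study's text also places in the agmatine deiminase family, carries no enzyme number in the table. Its level was 0.460, 0.578 and 0.683 FPKM in EcRS, 18.0, 6.84 and 0.573 FPKM in EcSQ, and 130, 176 and 173 FPKM in EcCK. It was chosen on these libraries, so no test is given for its log2 fold change of -8.11 ± 0.35 for EcRS over EcCK. As for *SI65_08013*, EcSQ replicates 1 and 2 lay between the other groups, while EcSQ replicate 3 lay within the range of EcRS.

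No gene of the table carried the enzyme number of arginine decarboxylase, which would make agmatine, or of N-carbamoylputrescine amidase, which would use the product of the deiminase. The 5 genes annotated as agmatinase were all expressed below 51 FPKM. *SI65_08682* (putative agmatinase 2) had 19.0, 14.8 and 17.5 FPKM in EcRS, 50.2, 38.2 and 8.73 FPKM in EcSQ, and 22.2, 30.3 and 30.9 FPKM in EcCK, and *SI65_06901* (putative agmatinase 1) had 6.65, 4.96 and 6.33 FPKM in EcRS, 29.5, 21.5 and 11.0 FPKM in EcSQ, and 4.54, 5.58 and 10.1 FPKM in EcCK. Beside the 2 genes chosen, the agmatine enzymes thus number 6, of which 2 fell in EcRS relative to EcCK, 0 rose and 4 did not pass, or 33.3% called against 60.5% of all genes. Both that fell are agmatinase genes, *SI65_01787* and *SI65_02093*, with log2 fold changes of -2.16 ± 0.47 (adjusted p = 0.00312) and -2.11 ± 0.47 (adjusted p = 0.00381), or -1.50 and -1.43 without EcCK replicate 3, when both were still called. Their values were nearly the same in every library (1.59 and 1.60 FPKM in EcRS replicate 1, 11.9 and 11.8 FPKM in EcCK replicate 3), and the table describes *SI65_02093* by the name of *SI65_01787*. They may be near-identical copies that share reads, so they are uncertain as separate genes.

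The other agmatinases were not called on ginseng. The log2 fold change of EcRS over EcCK was -0.17 ± 0.37 for *SI65_06901* (adjusted p = 0.700), -0.70 ± 0.25 for *SI65_08682* (adjusted p = 0.0332) and -0.49 ± 0.42 for *SI65_04699* (adjusted p = 0.316), and each became positive with TMM (0.72, 0.14 and 0.39). On *P. notoginseng*, *SI65_06901* had a log2 fold change over EcCK of 1.62 (adjusted p = 0.227), and without EcSQ replicate 3 it rose by 1.92 (adjusted p = 0.0285), the only one of the 6 agmatine enzymes called there (16.7%, beside 16.6% of all genes). With all libraries it was also called with TMM (1.75, adjusted p = 0.0464), and DESeq2 called 1 of the 6. Between the roots edgeR called 0 of the 6 (1 at an unadjusted p under 0.05), DESeq2 1 and limma 0, and without EcSQ replicate 3 all 6 were lower in EcRS (54.1% of all genes called). No difference between the agmatinases and the pair was tested.

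Genes of the ornithine route changed in both directions on ginseng. Of 9 genes 8 could be tested, and 2 rose, 3 fell and 3 did not pass, so that 62.5% were called, near the 60.5% of all genes. With TMM 4 rose and 0 fell, against 26.4% higher and 31.4% lower over all genes. These 4 include *SI65_01805* and *SI65_02074*, whose values were close in each library, so they are uncertain as separate genes. The median log2 fold change of the 8 tested genes, both of these included, was 0.12, against -0.96 for all genes tested. Arginase, which splits arginine into ornithine and urea, was annotated to 3 genes. *SI65_05912* rose, with 79.4, 68.2 and 81.4 FPKM in EcRS against 9.81, 17.5 and 30.4 FPKM in EcCK (1.99 ± 0.40 on the log2 scale, adjusted p = 0.00203), and had 100, 86.3 and 81.7 FPKM in EcSQ. All 6 libraries from roots lay above every EcCK library, EcSQ replicate 3 included. The share of all genes with this order was not computed. For EcSQ over EcCK *SI65_05912* was not called (2.21 ± 0.64, adjusted p = 0.0855). It was called as higher without EcSQ replicate 3 (2.28, adjusted p = 0.0163) and with TMM (2.59, adjusted p = 0.0325). *SI65_05914* did not pass (-0.44 ± 0.26, adjusted p = 0.164; 0.34 with TMM), and *SI65_01302*, under 2 FPKM in every library, was not tested.

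Ornithine decarboxylase, which makes putrescine from ornithine, was also annotated to 3 genes. *SI65_01805* had 258, 226 and 182 FPKM in EcRS, 190, 172 and 250 FPKM in EcSQ, and 115, 123 and 179 FPKM in EcCK. Its log2 fold change of 0.68 ± 0.28 for EcRS over EcCK did not pass (adjusted p = 0.0567), and it was called as higher with TMM (1.54). The values of *SI65_02074* were close to these in each library (263 FPKM in EcRS replicate 1), so the same caution on shared reads holds. The remaining gene, *SI65_08011*, fell, with 56.5, 71.9 and 83.0 FPKM in EcRS against 110, 236 and 336 FPKM in EcCK (log2 fold change -1.69 ± 0.40, adjusted p = 0.00509), a call that TMM took away (-0.79). In EcSQ it had 727, 488 and 37.6 FPKM, so that replicates 1 and 2 lay above and replicate 3 below every EcCK library.

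Of the enzymes that lead on to spermidine, spermidine synthase *SI65_05204* rose in EcRS, with 335, 360 and 338 FPKM against 130, 129 and 246 FPKM in EcCK (log2 fold change 1.03 ± 0.31, adjusted p = 0.0164). Its call was lost without EcCK replicate 1, EcCK replicate 2 or EcRS replicate 2, when the log2 fold change lay between 0.87 and 1.00. S-adenosylmethionine decarboxylase *SI65_04975*, which supplies the aminopropyl group, fell, with 66.7, 61.8 and 47.6 FPKM in EcRS against 113, 148 and 140 FPKM in EcCK (-1.19 ± 0.25, adjusted p = 0.00275; -0.35 and not called with TMM). S-adenosylmethionine synthase *SI65_02810* had a log2 fold change of -1.13 ± 0.43 (adjusted p = 0.0428). Without EcCK replicate 3, its highest library at 843 FPKM, the log2 fold change was -0.45 and the call was lost, as it was with the replicate block (-0.94) and without any single EcRS library.

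**Figure D3:**
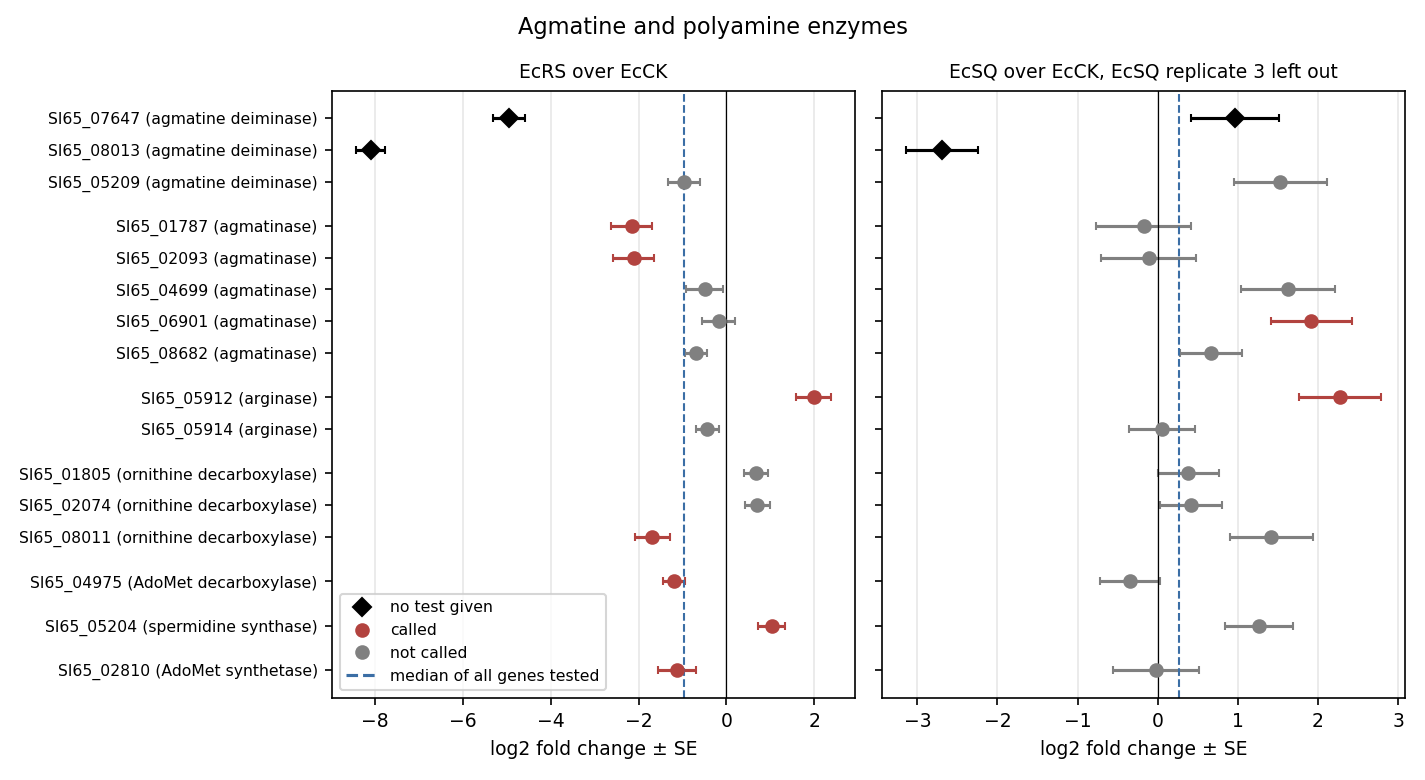
Log2 fold change ± SE (x axis) of the agmatine and polyamine enzymes that could be tested, by role, for EcRS over EcCK (left) and for EcSQ over EcCK without EcSQ replicate 3 (right). The dashed line is the median of all genes tested (-0.96 left, 0.27 right). *SI65_08013* lies below the other genes in both panels (-8.10 and -2.69), while *SI65_07647* lies at -4.95 on the left and 0.96 on the right.

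Over the wider set of 70 polyamine, arginine and urea genes without the pair, 58 could be tested for EcRS over EcCK. Of these 28 fell, 6 rose and 24 did not pass, so that 58.6% were called, near the 60.5% of all genes. With TMM 16 fell and 12 rose, and over all genes TMM gave 2798 lower and 2352 higher in place of 4251 and 1145. For EcSQ over EcCK 1 of 60 was called, against 3.59% of all genes, and without EcSQ replicate 3 it was 13, with 8 higher and 5 lower. That was 21.7%, beside 16.6% of all genes (9.88% higher and 6.69% lower). The 1 gene was *SI65_03005*, annotated as 4-aminobutyrate transaminase, and its call was lost without EcSQ replicate 2 or any single EcCK library. For EcRS over EcSQ edgeR called 0 of 55 (16 at an unadjusted p under 0.05), beside 0.0342% of all genes, DESeq2 6 and limma 0. With EcSQ replicate 3 left out 34 fell, or 61.8% called, beside 54.1% of all genes (49.8% lower).

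Several genes that act on the products of the pathway changed on ginseng. *SI65_03005* rose in EcRS, with 581, 631 and 768 FPKM against 38.4, 80.3 and 99.4 FPKM in EcCK (log2 fold change 3.18 ± 0.40, adjusted p = 0.000157). It takes the amino group from 4-aminobutyrate, to which putrescine can be broken down. A second gene annotated as 4-aminobutyrate transaminase, *SI65_01542*, did not pass (-0.48 ± 0.33, adjusted p = 0.227). Copper amine oxidase *SI65_09748*, which oxidizes primary amines, fell to 0.0654, 0.212 and 0.224 FPKM in EcRS, against 14.3, 12.4 and 6.04 FPKM in EcCK (-6.00 ± 0.59, adjusted p = 4.43e-05). In EcSQ it had 0.506 and 0.404 FPKM in replicates 1 and 2 and was listed at 0 in replicate 3, so here all 6 libraries from roots were low. The share of all genes that lie below EcCK in both root groups was not computed. For EcSQ over EcCK *SI65_09748* was not called (-5.16, adjusted p = 0.0785), but it was without EcSQ replicate 3 (-4.57, adjusted p = 0.00287). The other gene described as copper amine oxidase, *SI65_09020*, did not pass (0.16 ± 0.44) and was called as higher with TMM (1.09). Of the remaining primary-amine oxidases *SI65_07580* fell (-2.43 ± 0.37), while *SI65_07429* (-0.37 ± 0.24) and *SI65_03870* (0.14 ± 0.28) did not pass. The list of amine breakdown held 26 genes, of which 16 could be tested, 2 rose and 10 fell (3 and 6 with TMM), so that 75.0% were called against 60.5% of all genes. *SI65_02174* (succinate-semialdehyde dehydrogenase) fell to 0.258, 0.279 and 0.122 FPKM in EcRS, against 38.8, 11.1 and 1.24 FPKM in EcCK (-6.25 ± 1.15, adjusted p = 0.00125), and its log2 fold change was -4.79 without EcCK replicate 1, when it was still called. With the same annotation, *SI65_01387* rose, with 73.8, 70.6 and 77.9 FPKM in EcRS against 18.3, 23.1 and 37.7 FPKM in EcCK (1.49 ± 0.31, adjusted p = 0.00231; 2.37 with TMM). *SI65_03012* (-1.16), *SI65_05453* (-1.17), *SI65_09203* (-2.13), *SI65_02730* (-2.01) and *SI65_06387* (-1.83) fell, of which only *SI65_09203* was still called with TMM. The rest with this annotation were not tested. *SI65_08814* (monoamine oxidase) had 0.294, 0.0487 and 0.103 FPKM in EcRS against 6.32, 8.20 and 11.6 FPKM in EcCK (-5.81 ± 0.65, adjusted p = 8.23e-05), and its log2 fold change was -6.75 without EcRS replicate 1.

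In the list of arginine synthesis and urea use, 1 of 19 genes rose in EcRS, 9 fell and 9 did not pass, so that 52.6% were called against 60.5% of all genes, and with TMM 4 rose and 6 fell. Urease *SI65_01576*, which splits urea, fell to 5.59, 6.08 and 8.53 FPKM in EcRS, against 45.6, 78.3 and 67.6 FPKM in EcCK (-3.24 ± 0.32, adjusted p = 4.36e-05), and had 26.6, 20.1 and 2.17 FPKM in EcSQ. A second urease gene, *SI65_07928*, fell by 2.64 ± 0.34 on the log2 scale (adjusted p = 0.000166), and *SI65_05122*, annotated as carbamoyl-phosphate synthase, fell by 5.06 ± 0.41 (adjusted p = 2.19e-05). With the same annotation, *SI65_05135* also fell (-1.96 ± 0.38). The arginine-specific small chain *SI65_02978* (-0.71 ± 0.30), the large chain *SI65_06537* (-0.14 ± 0.27) and *SI65_05133* (0.10 ± 0.25) did not pass. Urea carboxylase *SI65_08351* was listed at 0 in EcRS replicates 1 and 3 and at 0.0510 FPKM in replicate 2, against 1.96, 1.80 and 6.98 FPKM in EcCK (adjusted p = 0.000514).

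Of 10 genes with a term for polyamine transport 9 could be tested, and 1 rose while 4 fell in EcRS (1 and 2 with TMM), or 55.6% called against 60.5% of all genes. Polyamine transporter 2 (*SI65_00614*) rose, with 2.86, 2.82 and 2.92 FPKM against 0.256, 0.349 and 0.0346 FPKM in EcCK (3.72 ± 0.68, adjusted p = 0.00123), and had 2.82, 3.85 and 2.60 FPKM in EcSQ. *SI65_01603* fell to 0.258, 0.183 and 0.220 FPKM in EcRS, against 15.1, 17.4 and 46.6 FPKM in EcCK (-6.86 ± 0.56, adjusted p = 2.21e-05; -6.16 without EcCK replicate 3). *SI65_03009* fell by 3.17 ± 0.42 (adjusted p = 0.000199). *SI65_07592*, a general amino-acid permease, fell by 1.63 ± 0.48 (adjusted p = 0.0150), a call lost with TMM (-0.70) and without EcRS replicate 3 (-1.37). Of the 77 other genes in the KEGG pathway of arginine and proline metabolism, which holds the pair, 68 could be tested, 5 rose and 29 fell (15 and 21 with TMM), a share of 50.0% called, against 60.5% of all genes. In KEGG arginine biosynthesis 5 of 32 rose and 14 fell (12 and 7 with TMM), or 59.4% called, and in KEGG nitrogen metabolism 4 of 24 rose and 14 fell (6 and 9 with TMM), or 75.0% called. The 3 further genes that share a GO term with the pair are *SI65_01805*, *SI65_02074* and *SI65_05209*, described above.

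The genes of the pair lie on different contigs but have a like neighbour. Directly upstream of *SI65_07647*, 661 bases away and on the same strand, is *SI65_07648*, and directly upstream of *SI65_08013*, 495 bases away and on the same strand, is *SI65_08012*. Both neighbours carry the same 4 GO terms, among them transporter activity and transmembrane transport, a combination found in 5 of the 10227 genes, and both have 6 exons, as do only these 2 of the 5. This likeness was noticed after the table was seen and was not tested.

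Both transporter genes fell on ginseng. *SI65_07648* had 14.1, 13.2 and 21.3 FPKM in EcRS, 190, 152 and 8.77 FPKM in EcSQ, and 88.0, 106 and 119 FPKM in EcCK, with a log2 fold change of -2.68 ± 0.29 for EcRS over EcCK (adjusted p = 6.9e-05). *SI65_08012* had 5.45, 3.20 and 4.47 FPKM in EcRS, 79.8, 35.4 and 2.40 FPKM in EcSQ, and 16.6, 31.7 and 42.1 FPKM in EcCK, with a log2 fold change of -2.78 ± 0.39 (adjusted p = 0.000298). Both calls held with TMM (-1.85 and -1.89). In EcSQ neither was called, with log2 fold changes over EcCK of 0.16 (adjusted p = 0.947) and 0.38 (adjusted p = 0.880), or 0.71 (adjusted p = 0.211) and 0.93 (adjusted p = 0.218) without replicate 3. *SI65_08013* was lower in all EcSQ libraries than in EcCK, while *SI65_08012* beside it had both its highest and its lowest value there.

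On the other side *SI65_07647* faces *SI65_07646*, described as serine phosphatase 2A activator 2, end to end at a distance of 110 bases. *SI65_07646* had 10.7, 12.5 and 11.8 FPKM in EcRS, 42.0, 25.9 and 2.83 FPKM in EcSQ, and 27.5, 24.5 and 29.5 FPKM in EcCK (EcRS over EcCK -1.22 ± 0.23, adjusted p = 0.00156; -0.40 and not called with TMM). Whether the authors counted by strand is not given in the sources used here, so values at the facing ends of such genes are uncertain. *SI65_08013* faces *SI65_08014*, of unknown function, at a distance of 282 bases. *SI65_08014* had 6.19, 4.22 and 3.03 FPKM in EcRS, 75.3, 30.8 and 8.69 FPKM in EcSQ, and 85.9, 147 and 155 FPKM in EcCK (-4.85 ± 0.40, adjusted p = 2.27e-05; -3.97 with TMM), and the same limit holds.

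Of the 5 genes on each side of *SI65_07647*, 6 fell in EcRS relative to EcCK, 0 rose and 4 did not pass. Of the 5 on each side of *SI65_08013*, 5 fell, 2 rose and 3 did not pass, beside 60.5% called among all genes. Those that rose were *SI65_08008* (log2 fold change 2.78 ± 0.37, adjusted p = 0.000212) and *SI65_08017* (3.17 ± 0.27, adjusted p = 2.41e-05). Next beyond *SI65_08012* lies *SI65_08011*, a gene annotated as ornithine decarboxylase. The transporter gene thus stands between this gene and *SI65_08013*, annotated as agmatine deiminase. The next gene after *SI65_08011* is a uricase, *SI65_08010* (-1.47 ± 0.31, adjusted p = 0.00274; -0.69 and not called with TMM), an enzyme of purine breakdown.

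**Figure D4:**
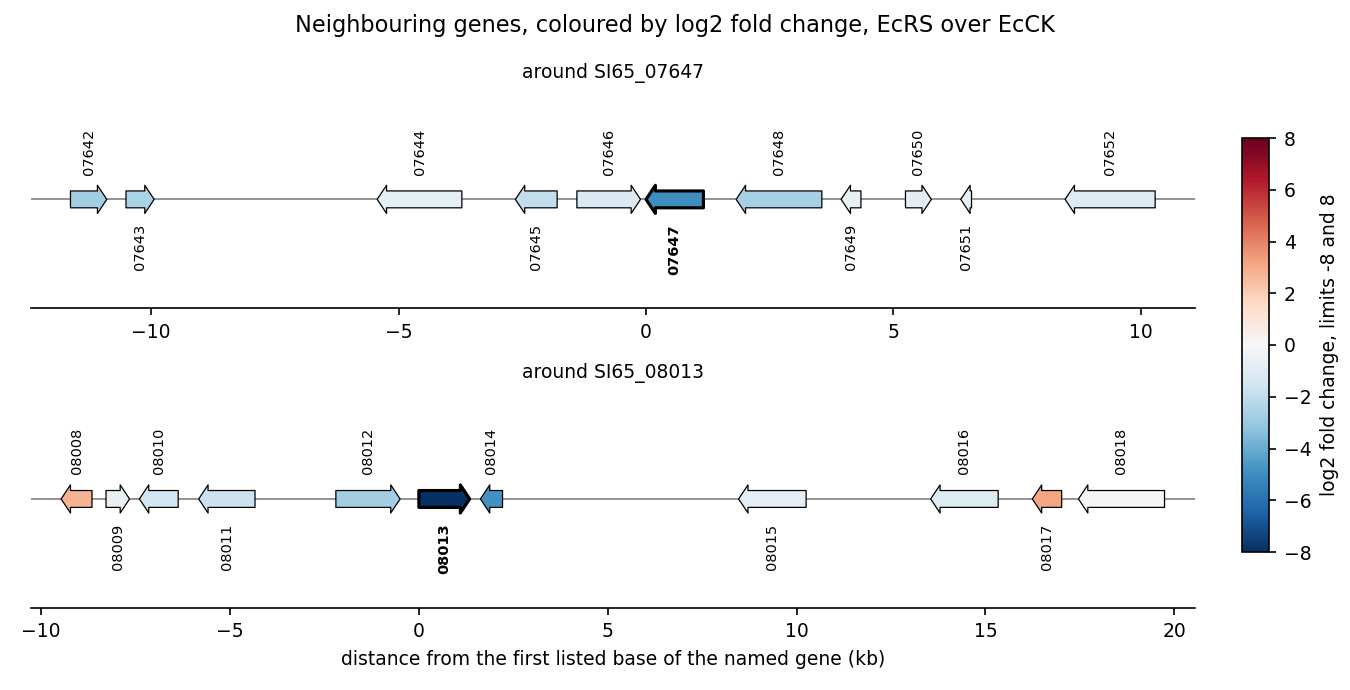
The 5 genes on each side of *SI65_07647* (top) and *SI65_08013* (bottom) as arrows in the direction of transcription, against distance in kb from the first listed base of the named gene. Colour gives the log2 fold change of EcRS over EcCK, with values beyond the limits drawn at the limit. The genes beside the pair on the upstream side, *SI65_07648* and *SI65_08012*, have -2.68 and -2.78.

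The profiles of the pair over the 9 libraries were compared with 9032 other genes that averaged 1 FPKM or more, by the root mean square difference of log2(FPKM + 1) centred on each gene's mean. The nearest gene to *SI65_07647* was *SI65_08667* (0.40), annotated with deubiquitination, with 2.00, 1.33 and 2.42 FPKM in EcRS, 199, 121 and 5.18 FPKM in EcSQ, and 56.2, 58.7 and 95.7 FPKM in EcCK. The next were *SI65_04952* (0.48), *SI65_07968* (0.50), *SI65_03606* (0.50), whose only term is deaminase activity, and *SI65_07810* (0.52). The nearest to *SI65_08013* was *SI65_03730* (0.52), annotated with ATPase activity, with 0.220, 0.416 and 0.504 FPKM in EcRS, 46.5, 17.7 and 0.766 FPKM in EcSQ, and 75.2, 98.3 and 144 FPKM in EcCK. It was followed by *SI65_04800* (0.57), *SI65_05495* (0.58), *SI65_00742* (0.58) and *SI65_07741* (0.58).

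The 5 nearest genes of each member shared no gene with the 5 of the other. The difference between the pair itself was 1.42, which made *SI65_08013* number 651 in the order around *SI65_07647* and *SI65_07647* number 175 in the order around *SI65_08013*. The adjacent transporter gene *SI65_07648* came nearer to *SI65_07647*, as number 209 (1.12), and *SI65_08012* was number 1177 in the order around its neighbour *SI65_08013* (2.05). *SI65_08014* was number 89 around *SI65_08013* (1.26). *SI65_05209* was number 3183 around *SI65_07647* and number 4475 around *SI65_08013*. These places describe the 9 libraries and carry no test.

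**Figure D5:**
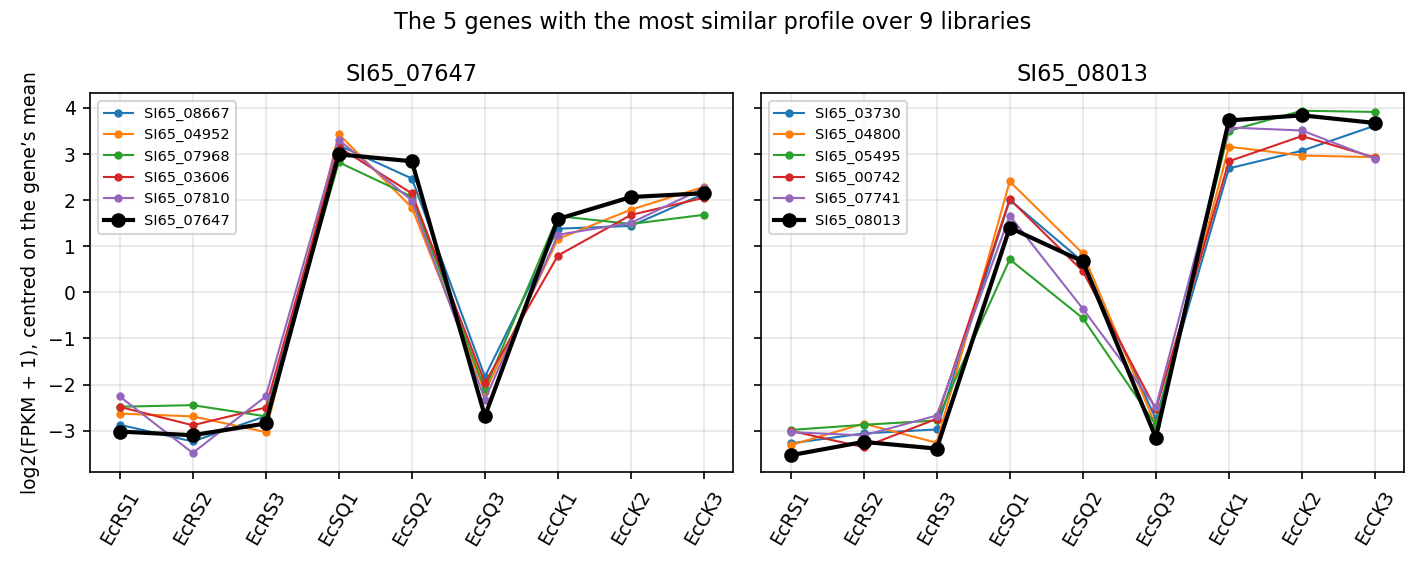
Log2(FPKM + 1), centred on each gene's mean, in the 9 libraries for *SI65_07647* (left) and *SI65_08013* (right) with the 5 genes nearest to each. Lines join the libraries for reading only. *SI65_07647* stands above EcCK in EcSQ replicates 1 and 2, whereas 2 of its 5 nearest genes, *SI65_04952* and *SI65_07810*, stand below EcCK replicate 3 in EcSQ replicate 2. *SI65_08013* stands between EcRS and EcCK in both of these EcSQ libraries.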

How the data were processed

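RNA from *A. cristatus* was sequenced in 3 EcRS, 3 EcSQ and 3 EcCK libraries, grouped by library name. Tools listed in the submitters' processing notes, with no role given, are Bowtie 0.12.2, HISAT2 2.0 and StringTie 1.3.0. For each of 10227 genes the authors deposited estimated counts and FPKM. The counts derive from coverage and total 45891944 to 61627866 per library. Coordinates are those of the table, whose genome build is not given in the sources used here.

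Rounded counts were tested with the quasi-likelihood fit of edgeR 4.0.16 in R 4.3.3. Library sizes were the totals behind the FPKM, recovered from genes with 200 or more counts. Genes below a mean of 1 FPKM in the 6 libraries of a comparison were left out. Calls required a Benjamini-Hochberg adjusted p of 0.05 or less and a change of 2-fold or more. Alternatives were TMM, DESeq2 1.42.0 and its size factors, limma 3.58.1 on log2(FPKM + 1) or log2(FPKM + 0.1), a mean of 5 FPKM or no filter, a joint fit of the 9 libraries, a replicate block and leaving out each library. Libraries of EcRS and EcCK with the same number deviated together from their group means (correlations 0.12, 0.20 and 0.29), so the numbers may pair them. This is uncertain, since those with different numbers gave -0.28 to 0.20. Tested on simulated EcRS and EcCK counts (8925 genes), the fit called 3 of 75 genes with a 2-fold change, 56 of 70 with 4-fold, 54 of 55 with 8-fold and 10 of 8725 without change. Only 200 genes were changed there, in random directions, whereas the median log2 fold change in the data was -0.96. The simulation thus cannot give the rate of false calls under such a shift.

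Members, lists and tests were chosen with earlier results of these data known. Named genes were the pair and *SI65_05495*, all genes of the agmatine and ornithine lists, up to 4 called genes by size of change in each other list of enzymes or transport, the adjacent genes and the 5 nearest profiles. *SI65_05208*, *SI65_08008*, *SI65_08010*, *SI65_08017*, *brlA* and *abaA* were added after their values were seen. So were the other genes annotated as carbamoyl-phosphate synthase, primary-amine oxidase, 4-aminobutyrate transaminase or succinate-semialdehyde dehydrogenase. Sequences were not used here.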

Additional observations from a re-analysis of the deposited data

How the results depend on the processing

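The log2 fold changes of EcRS over EcCK depended on the scaling. For *SI65_07647* (-4.95) TMM gave -4.11 and DESeq2 size factors, in edgeR and in DESeq2, -4.08, and for *SI65_08013* (-8.10) TMM gave -7.29, DESeq2 size factors in edgeR -7.26, DESeq2 -7.26 and limma on log2(FPKM + 1) -7.14. The log2 fold change of *SI65_07647* for EcSQ over EcCK (0.39) was negative with limma on log2(FPKM + 1) (-0.89) and on log2(FPKM + 0.1) (-0.89), with the replicate block (-0.35) and without EcSQ replicate 1 (-0.08). The other comparisons of the pair kept their direction under the alternatives run. Of the pathway genes, 34 were called for EcRS over EcCK, 34 with the replicate block and 21 with all 9 libraries in one fit. For EcSQ over EcCK 1 was called, against 10 with TMM, with DESeq2 size factors and with all 9 libraries, 16 with DESeq2, 3 and 2 with limma at pseudocounts of 1 and 0.1, 0 with the replicate block, and 0 to 13 when single libraries were left out. For EcRS over EcSQ 0 were called, against 6 with DESeq2, 4 with all 9 libraries and 0 to 34 when single libraries were left out. Numbers did not pair the EcSQ libraries with EcCK or EcRS (correlations -0.17 to 0.21). Of the calls of other named genes the block took away *SI65_02810* for EcRS over EcCK and *SI65_03005* for EcSQ over EcCK. Simulated 2-fold changes, which lie at the fold limit of a call, were rarely called, and counts derived from coverage carry no exact counting interval.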
